A study of Mus musculus with 10 samples.

Results

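The Klk1 family of mouse tissue kallikreins was examined in the pancreas of newborn mice that express the cytokine IL-23 in the skin and in their controls. The members were 10 gene symbols, Klk1, Klk1b1, Klk1b3, Klk1b4, Klk1b5, Klk1b11, Klk1b21, Klk1b24, Klk1b26 and Klk1b27, and 10 of 10 were found among the 24062 genes in the count files. RNA-Seq counts came from whole pancreas of 5 WT and 5 KSR23 mice, all C57BL/6 and all at postnatal day 5, with 1 library per mouse. KSR23 mice carry the R23 cassette, in which both IL-23 subunits sit in the ROSA26 locus behind a floxed STOP sequence, together with Cre driven by the human K14 promoter, which directs the expression of IL-23 to keratinocytes. The WT mice were control littermates. KSR23 mice are smaller than their littermates and die early, so the groups also differed in growth.

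Tissue kallikreins are trypsin-like serine proteases that are secreted by gland cells. Klk1, the true tissue kallikrein, cuts kininogens and so releases kinins, short peptides that act on the receptors encoded by Bdkrb1 and Bdkrb2 and widen vessels, until peptidases called kininases degrade them. The mouse genome holds a row of close Klk1 copies, the Klk1b genes, which are best known from the salivary glands.

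All 10 members lay on the plus strand of chromosome 7 of GRCm38, between positions 43966751 and 44229618, a span of 262.9 kb, and each had 5 exons in GENCODE M21. Klk1 (44225360 to 44229618) was the last in the row, and Klk1b5 (44215945 to 44220703) ended 4657 bases before it. Klk1b4 (44207435 to 44211754), Klk1b3 (44198191 to 44202352) and Klk1b24 (44188236 to 44192455) came before these, and Klk1b11 (43995877 to 43999875) lay near the other end, between Klk1b1 (43966751 to 43971318) and Klk1b26 (44012168 to 44016968). Klk1b27 (44052290 to 44056712) and Klk1b21 (44102328 to 44106583) lay in between. The coding sequences, of 768 to 789 bases, were between 82.4% and 95.1% identical in all pairs of members, and the most alike pair was Klk1 and Klk1b5. Identity to Klk1 was 88.6% for Klk1b3, 88.6% for Klk1b4, 84.8% for Klk1b24 and 84.7% for Klk1b11.

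This likeness matters for the counts, because reads of 75 bases were assigned to genes and only reads aligned to 1 place were kept. The stretch of 75 coding bases around the active-site serine, the length of 1 read, is printed here for the 6 members with enough counts to compare. Capitals mark bases that differ from Klk1 in an ungapped comparison. The stretch is coding bases 603 to 677 of Klk1, Klk1b3, Klk1b5 and Klk1b11, 609 to 683 of Klk1b24 and 588 to 662 of Klk1b4.
Klk1: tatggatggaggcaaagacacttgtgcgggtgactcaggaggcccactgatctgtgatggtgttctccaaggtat
Klk1b5: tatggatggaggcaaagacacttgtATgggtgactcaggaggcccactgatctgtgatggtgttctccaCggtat
Klk1b3: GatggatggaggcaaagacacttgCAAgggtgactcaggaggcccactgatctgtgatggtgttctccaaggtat
Klk1b24: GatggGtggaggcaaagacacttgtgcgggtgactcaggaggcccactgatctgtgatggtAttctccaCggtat
Klk1b11: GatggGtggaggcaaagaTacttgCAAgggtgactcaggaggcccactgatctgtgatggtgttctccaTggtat
Klk1b4: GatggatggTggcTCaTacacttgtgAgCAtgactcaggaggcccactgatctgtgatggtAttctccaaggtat

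Klk1b5 differed from Klk1 at 3 of these bases, Klk1b3 at 4, Klk1b24 at 4, Klk1b11 at 7 and Klk1b4 at 9. Trypsin-like proteases share a run of glycine, aspartate, serine, glycine and glycine codons at this site. It was complete in the printed stretch of each member but Klk1b4, whose product is known to lack protease activity. In Klk1b4 the first glycine codon of the run differed, while the serine codon was kept. Over the longest coding transcript of each gene, between 85.6% (Klk1 and Klk1b24) and 96.2% (Klk1b3) of 75-base windows were found in no other gene's transcripts. Windows that came within 2 mismatches of a Klk1 window were also counted, identical ones included. They made up 25.3% of Klk1b5, 16.6% of Klk1b4, 11.8% of Klk1b11, 8.71% of Klk1b3 and 7.21% of Klk1b24. The share was 12.4% for Klk1b21, 8.32% for Klk1b1, 4.66% for Klk1b27 and 0% for Klk1b26. Reads from identical windows were dropped as not unique, while a sequencing error could move a read from a close but not identical window. Reads of Klk1, which outnumbered those of the copies, could therefore be counted in a copy. The counts of the copies are uncertain for that reason, and the shares do not separate identical from close windows.

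**Figure D1:**
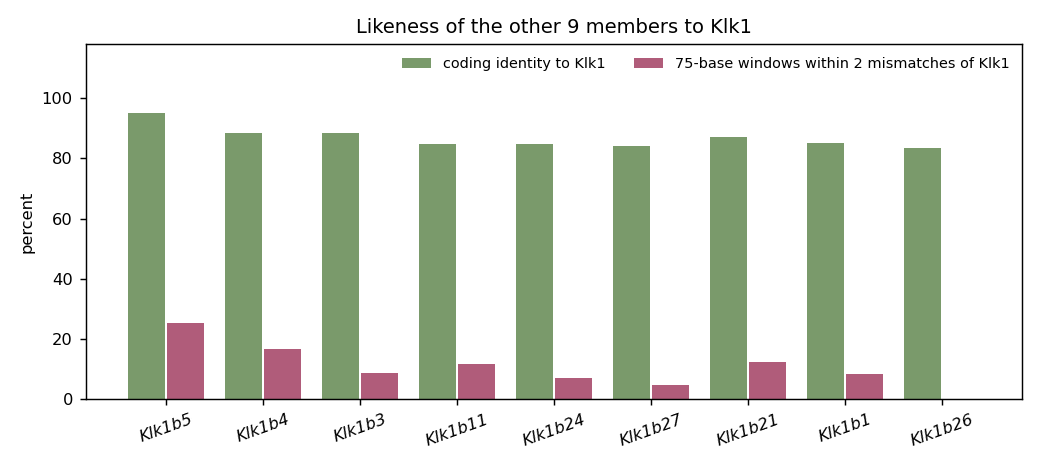
Percent coding identity to Klk1 (green bars) and percent of 75-base transcript windows within 2 mismatches of a Klk1 window (red bars) for the other 9 members. Klk1b5 has the tallest bar of both kinds, 95.1% and 25.3%.

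The start sites of the members also differ in sequence, and the 80 bases before each RefSeq start are printed for the 6 compared genes, because the letters TTTAAA are shared by most of the copies. Sequences are from RefSeq promoters on GRCm38.p6, plus strand, and the hexamer is in capitals.
Klk1, chr7:44225280-44225359: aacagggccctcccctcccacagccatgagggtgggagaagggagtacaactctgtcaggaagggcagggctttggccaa
Klk1b5, chr7:44216394-44216473: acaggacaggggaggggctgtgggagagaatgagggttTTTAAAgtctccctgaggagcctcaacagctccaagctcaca
Klk1b3, chr7:44198111-44198190: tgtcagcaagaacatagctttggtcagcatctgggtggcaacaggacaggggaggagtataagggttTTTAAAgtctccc
Klk1b24, chr7:44188156-44188235: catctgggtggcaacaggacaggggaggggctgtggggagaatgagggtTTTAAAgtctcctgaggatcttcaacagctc
Klk1b11, chr7:43995797-43995876: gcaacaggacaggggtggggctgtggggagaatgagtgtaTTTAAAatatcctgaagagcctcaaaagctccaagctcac
Klk1b4, chr7:44207353-44207432: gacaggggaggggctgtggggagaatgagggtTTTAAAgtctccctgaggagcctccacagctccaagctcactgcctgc

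RefSeq promoters were matched for 10 of 10 members. TTTAAA stood within the 250 bases before the start of 8 of 10 members, and in 12.1% of 32851 promoters. Both were searched the same way, on both strands. It was not found in that window of Klk1 or Klk1b21. Bases after the start were not searched, so a hexamer just downstream of the start of either gene was not looked for. The printed stretches of the copies are much alike, so the members are not independent, here or for the letters below. TATAAA, found in 12.4% of promoters, was in none of the members' windows. CACCTG, a form of the E-box that can be bound by factors such as PTF1, was in 4 of 10 windows (Klk1, Klk1b3, Klk1b4 and Klk1b5) and in 17.2% of promoters. TTTCCC was in 3 of 10 windows (Klk1b21, Klk1b24 and Klk1b27) and in 21.9% of promoters, and TTCNNNGAA, the letters that STAT factors bind, was in 0 of 10 and 7.02%. These matches are letters in a window, with no measure of binding.

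Before the members are compared, the libraries need a word. Gene counts per library were between 26830235 and 33189132 in WT and between 16715976 and 57784136 in KSR23 mice, with the lowest in KSR23 replicate 3. That library also stood apart in neutrophil genes, with S100a8 at 76.4 CPM against 9.90 to 17.6 CPM in the other KSR23 mice, S100a9 at 73.5 against 7.76 to 16.7 CPM and Mpo at 37.7 against 1.62 to 9.39 CPM. It was the highest KSR23 mouse for each of the 6 compared members, so values without it are given where a call rests on it, and the part of other cells in them was not tested. The share of alignments discarded as not unique was 49.6% to 53.7% in WT and 38.5% to 42.5% in KSR23, so the groups differed in it without overlap, and its part in the results was not tested. Acinar transcripts held a large share of the counts in all libraries. The 25 listed acinar secreted genes held 557365 to 616492 CPM in WT and 383466 to 477476 CPM in KSR23. CPM are counts per 1000000 of the scaled library total, so this is a share of transcripts and not of cells. The 9 salivary gland markers that define that gland (Smr2, Smr3a, Muc19, Bpifa2, Lpo, Dcpp1, Dcpp2, Dcpp3 and Prol1) had at most 11 counts in any library, and 6 of 13 genes on the salivary list had 0 counts in all 10 libraries.

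Klk1 was by far the most abundant member. The level of Klk1 in WT pancreas was 1374.0, 1278.8, 1459.0, 1407.6 and 1412.4 CPM, the 38th highest mean among the 13882 genes tested. In KSR23 pancreas it was 419.5, 508.8, 625.2, 618.5 and 422.7 CPM, the 79th highest. The groups were far apart, as the highest KSR23 mouse was below the lowest WT mouse. Klk1 fell by 1.42 on the log2 scale (SE 0.110, adjusted p = 2.00e-08, edgeR quasi-likelihood test with Benjamini-Hochberg adjustment), which left 37.4% of the WT mean. An exact two-sided permutation test of the CPM values gave p = 0.00794, the smallest that 5 against 5 mice allow, and 89 tested genes had a log2 FC as low as that of Klk1 or lower.

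Klk1b5, the neighbor of Klk1, fell as well. Its level was 16.5, 14.4, 13.6, 17.0 and 17.3 CPM in WT and 4.71, 5.75, 10.2, 7.94 and 5.89 CPM in KSR23 mice. Here too all KSR23 mice were below all WT mice, with KSR23 replicate 3 the closest to WT. The log2 FC of Klk1b5 was -1.22 (SE 0.161, adjusted p = 1.55e-05 by the edgeR quasi-likelihood test, exact permutation p = 0.00794), and 43.8% of the WT mean was left.

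Klk1b11 fell by less. Its level was 3.15, 3.57, 3.02, 4.61 and 3.54 CPM in WT and 1.64, 2.43, 3.58, 2.32 and 2.02 CPM in KSR23 mice. The groups overlapped through KSR23 replicate 3, which was above 4 of 5 WT mice, while the other 4 KSR23 mice were below the lowest WT mouse. The log2 FC of Klk1b11 was -0.61 (SE 0.204, adjusted p = 0.0299 by the edgeR quasi-likelihood test, exact permutation p = 0.0397). The call did not hold with library size alone as the scaling (log2 FC -0.52, adjusted p = 0.0705), nor when any 1 of 5 libraries was left out (WT replicates 2 and 4, KSR23 replicates 1, 4 and 5), where the highest adjusted p was 0.0961, without WT replicate 4.

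Klk1b4 and Klk1b3 did not pass the test. Klk1b4 was at 4.91, 4.05, 4.53, 4.68 and 5.74 CPM in WT and at 2.62, 3.59, 4.98, 4.51 and 2.79 CPM in KSR23 mice. Klk1b3 was at 5.12, 3.88, 4.04, 4.68 and 2.31 CPM in WT and at 2.49, 3.02, 4.25, 3.39 and 2.66 CPM in KSR23 mice. Both genes overlapped between groups, and all 5 KSR23 values of Klk1b3 were within the WT range. The log2 FC was -0.39 for Klk1b4 (SE 0.182, adjusted p = 0.112) and -0.36 for Klk1b3 (SE 0.204, adjusted p = 0.191) by the edgeR quasi-likelihood test, and 2 SE on either side reached from -0.76 to -0.03 and from -0.77 to 0.05. Klk1b4 passed without KSR23 replicate 3 (log2 FC -0.50, adjusted p = 0.0423) and Klk1b3 without WT replicate 5 (-0.51, adjusted p = 0.0430).

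Klk1b24 rested on 12 to 36 counts per library. It was at 1.09, 1.24, 0.773, 0.904 and 0.596 CPM in WT and at 0.302, 0.770, 1.68, 0.324 and 0.50 CPM in KSR23 mice. The spread in KSR23 mice was the wider, since replicate 3 was the highest of all 10 libraries while replicates 1, 4 and 5 were the lowest. The log2 FC was -0.50 (SE 0.402, adjusted p = 0.373 by the edgeR quasi-likelihood test) and became -0.96 (adjusted p = 0.0399) without KSR23 replicate 3, so that library decides the call.

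**Figure D2:**
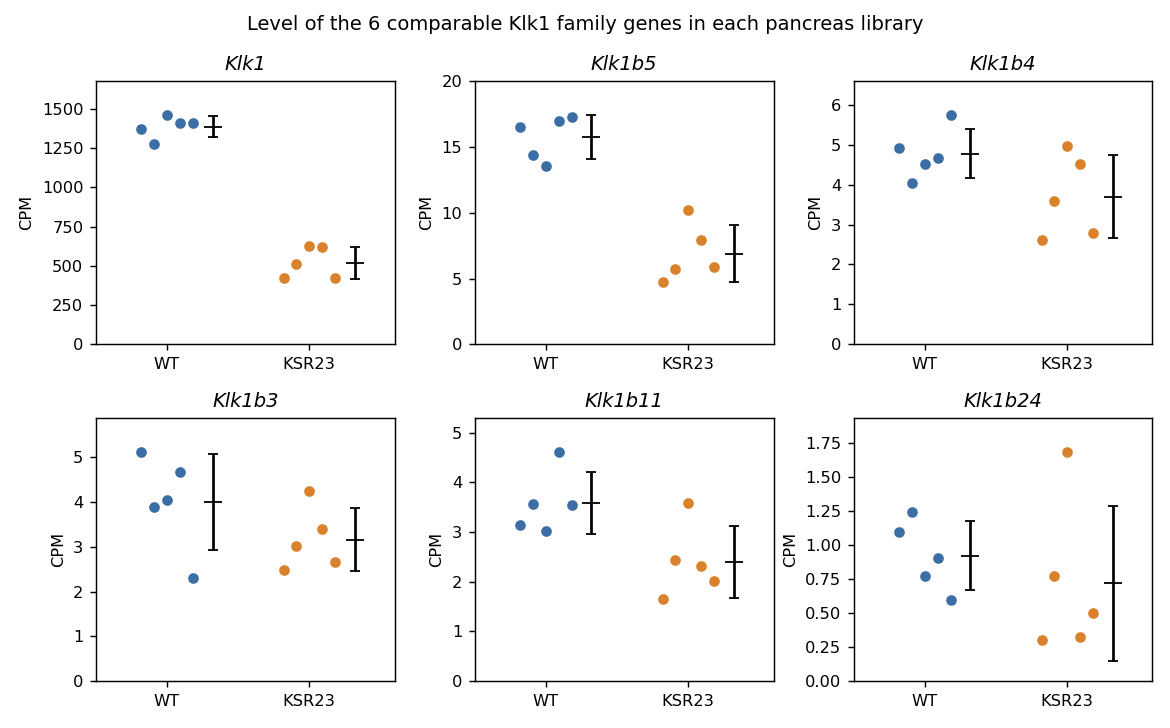
Level in CPM (y axis, from 0, a separate scale per gene) of the 6 compared members in each WT (blue) and KSR23 (orange) library, with the mean and SD of 5 mice as a black bar. Klk1 and Klk1b5 do not overlap between groups, and KSR23 replicate 3, the middle orange point, is the highest KSR23 value of each gene.

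Of the 6 members tested, 3 were lower in KSR23 mice, 0 were higher and 3 did not pass, where 14.8% of all tested genes were called lower, 16.2% higher and 31.0% in either direction. Without KSR23 replicate 3, 5 of 6 were lower, all but Klk1b3. All 6 fold changes were below 0 by edgeR's quasi-likelihood and likelihood ratio tests and by DESeq2, so 0 members were higher at an unadjusted p under 0.05 as well. CPM values did not overlap in 2 of 6 members, both lower, against 8.74% of all tested genes that were lower without overlap. The median log2 FC of the 6 members was -0.56, beside -0.01 over all tested genes. Klk1, Klk1b5 and Klk1b11 also appear among genes that the study picked on these same libraries, so their direction is no independent evidence. In whole pancreas, fewer acinar cells and less RNA per cell cannot be told apart.

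**Figure D3:**
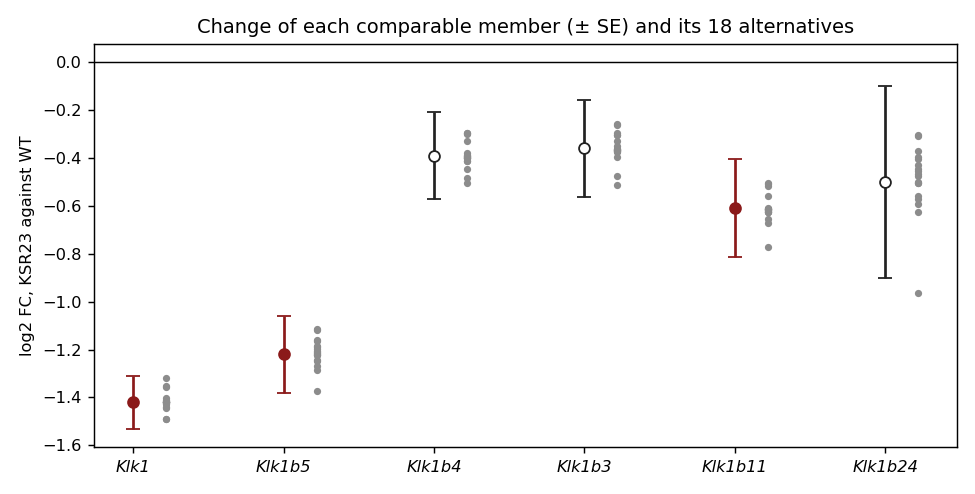
Log2 FC of KSR23 against WT for the 6 compared members (large points, with SE; filled red where the adjusted p passed 0.05, open where not) and the values under 18 alternative settings (small gray points). Klk1 at -1.42 and Klk1b5 at -1.22 are lower than the other 4, which are between -0.61 and -0.36.

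Levels between genes can be set side by side only per length. Per kilobase of transcript, the WT level was 1453.2 ± 70.6 CPM for Klk1, 11.3 ± 1.20 for Klk1b5, 5.70 ± 0.739 for Klk1b4, 4.51 ± 1.20 for Klk1b3, 4.15 ± 0.725 for Klk1b11 and 1.05 ± 0.287 for Klk1b24 (SD, n = 5). In this order Klk1b4 and Klk1b3 were within their spread of each other, as were Klk1b3 and Klk1b11, while every other pair of neighbors was apart by more than the SDs. In KSR23 mice the level per kilobase was 544.0 ± 105.4 CPM for Klk1, 4.96 ± 1.57 for Klk1b5, 4.40 ± 1.24 for Klk1b4, 3.56 ± 0.787 for Klk1b3, 2.78 ± 0.846 for Klk1b11 and 0.814 ± 0.649 for Klk1b24. Klk1b5 was then within the spread of Klk1b4. The transcript model of Klk1b5 begins upstream of its RefSeq start, so its level per kilobase may be understated.

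Klk1 made up 97.93% ± 0.185 of the family's counts in WT and 96.84% ± 0.415 in KSR23 mice (SD, n = 5). All members together held 0.134%, 0.131%, 0.142%, 0.134% and 0.144% of gene counts in WT and 0.0467%, 0.0531%, 0.0695%, 0.0658% and 0.0423% in KSR23 mice. This sum is in effect a measure of Klk1.

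Whether the copies changed by the same amount as Klk1 was asked within each library, as reads of the copy per 1000 Klk1 reads, which no scaling of libraries can move. For Klk1b5 this was 12.0, 11.2, 9.29, 12.1 and 12.2 in WT and 11.2, 11.3, 16.3, 12.8 and 13.9 in KSR23 mice. The groups overlapped, and the log2 ratio differed by 0.20 (SE 0.125, exact permutation p = 0.167, 0.167 after Benjamini-Hochberg adjustment over the 5 ratios). A p that misses the threshold does not show an equal change of Klk1b5 and Klk1.

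Klk1b4, Klk1b3 and Klk1b11 gained on Klk1, as did 90.4% of all other tested genes without overlap, so this sets them apart from few genes. Klk1b4 reads per 1000 Klk1 reads were 3.57, 3.17, 3.11, 3.32 and 4.06 in WT and 6.24, 7.05, 7.96, 7.29 and 6.59 in KSR23 mice. Klk1b3 reads per 1000 Klk1 reads were 3.72, 3.03, 2.77, 3.32 and 1.64 in WT and 5.94, 5.94, 6.80, 5.48 and 6.30 in KSR23 mice. Klk1b11 reads per 1000 Klk1 reads were 2.30, 2.79, 2.07, 3.28 and 2.51 in WT and 3.90, 4.78, 5.73, 3.74 and 4.77 in KSR23 mice. For these 3 genes all 5 KSR23 mice had a higher value than any WT mouse. The log2 ratio rose by 1.03 for Klk1b4 (SE 0.0927), 1.12 for Klk1b3 (SE 0.211) and 0.83 for Klk1b11 (SE 0.160), each with an exact permutation p of 0.00794 and an adjusted p of 0.0132.

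Klk1b24 reads per 1000 Klk1 reads were 0.791, 0.967, 0.530, 0.642 and 0.422 in WT and 0.720, 1.51, 2.68, 0.523 and 1.18 in KSR23 mice, with overlap. The log2 ratio of Klk1b24 differed by 0.82 (SE 0.455, exact permutation p = 0.111, adjusted p = 0.139), and by 1.09 (exact permutation p = 0.0476) without KSR23 replicate 4. A higher ratio to Klk1 is the common case in these libraries. Of the other 13881 tested genes, 90.4% had a higher ratio in KSR23 mice without overlap and 9.38% overlapped, and the median log2 difference was 1.43. Klk1b5 is thus in the smaller class, while Klk1b3, Klk1b4 and Klk1b11 had the higher ratio that most genes had. Of the 25 acinar secreted genes, 13 had a higher ratio to Klk1 without overlap, 9 overlapped and 3 had a lower one. Klk1b5 is also the copy with the most windows close to Klk1, at 25.3%, and the part of misassigned Klk1 reads in its change was not tested.

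**Figure D4:**
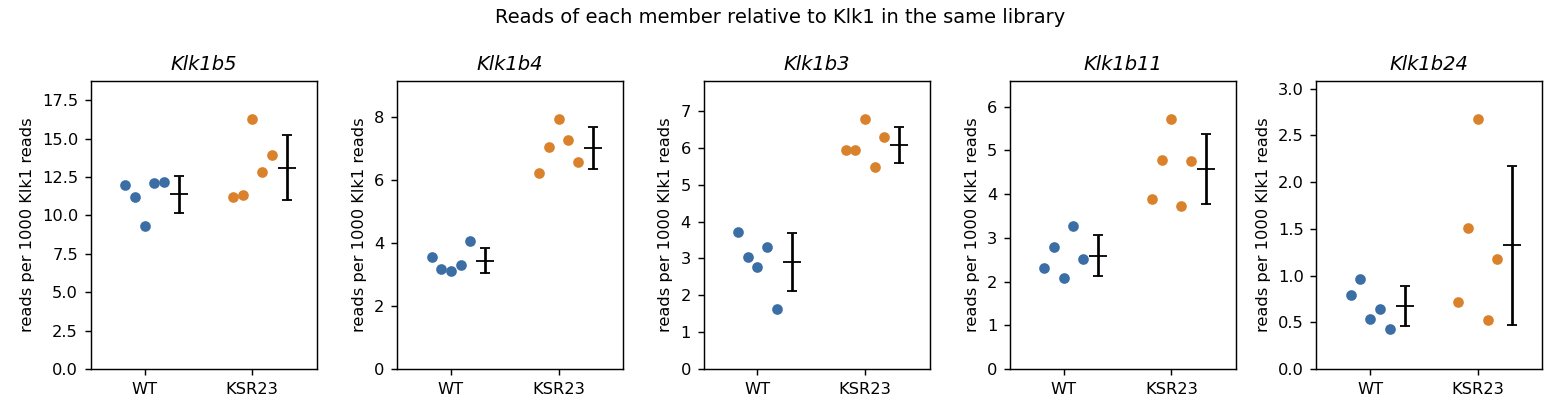
Reads of each copy per 1000 Klk1 reads in the same library (y axis, from 0, a separate scale per gene) in WT (blue) and KSR23 (orange) mice, with the mean and SD of 5 mice as a black bar. The groups are apart for Klk1b4, Klk1b3 and Klk1b11 and overlap for Klk1b5 and Klk1b24.

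The other 4 members were too low to compare. Klk1b26, whose product is known as an EGF-binding protein and a prorenin-converting enzyme, had 0 counts in all 10 libraries, where the limit that a count of 0 allows (3 counts) was 0.0536 to 0.168 CPM per library. Klk1b1 had 1, 1, 2, 2 and 1 counts in WT and 1, 0, 0, 2 and 0 in KSR23 mice, and Klk1b21 had 2, 3, 0, 2 and 2 against 1, 1, 0, 3 and 1. Klk1b27 had 1, 1, 6, 4 and 1 counts in WT and 5, 7, 6, 12 and 9 in KSR23 mice, or 13 against 39 in sum. It was the one member with higher counts in KSR23 mice, but the groups overlapped (exact permutation p = 0.0556 on CPM), and the fit without a count filter did not call it (log2 FC 1.25, SE 0.665, adjusted p = 0.195 by the edgeR quasi-likelihood test). Reads were counted by strict intersection with transcript models of an annotation that is not given in the sources used here.

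The genes whose pattern over the 10 libraries was most like that of Klk1 were found by the root mean square difference of log2 CPM, each gene centered on its own mean. The nearest were Pipox (0.101), an enzyme of pipecolic acid breakdown, Ddc (0.153), which makes dopamine and serotonin, Ptgr1 (0.171), a prostaglandin reductase, Pde8b (0.187), a cAMP phosphodiesterase, and Cpa1 (0.188), the acinar carboxypeptidase A. Klk1b5 was at 0.203, with 11 of 13876 non-member genes nearer to Klk1. The other copies were farther, with Klk1b11 at 0.474, Klk1b4 at 0.533, Klk1b3 at 0.635 and Klk1b24 at 0.742, beside a median of 0.768 over all other tested genes.

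Of 17 other kallikrein genes in the files, 4 could be tested. Of these, 1 was lower and 1 was higher, where 14.8% of all tested genes were lower and 16.2% higher. Genes that were low in only 1 group also failed the count minimum, so this count leaves them out. Klk1b8, a further copy in the same row, went from 18.4 ± 1.68 CPM in WT to 9.50 ± 1.70 CPM in KSR23 mice (SD, n = 5) without overlap, with a log2 FC of -0.96 (SE 0.119, adjusted p = 7.19e-06 by the edgeR quasi-likelihood test). Of its 75-base windows, 91.7% were unique. Klk10 had a log2 FC of 0.88 (SE 0.319, adjusted p = 0.0434 by the edgeR quasi-likelihood test) on 6 to 55 counts, with overlap. The remaining 13 were too low, and of these Klk1b16, Klk1b7-ps and Klk6, named after their values were seen, did not overlap. No share without overlap was computed for genes this low. Klk1b16 had 30, 19, 43, 44 and 12 counts in WT and 0, 4, 5, 5 and 3 in KSR23 mice. Klk1b7-ps had 20, 14, 10, 14 and 6 counts in WT and 0, 1, 2, 2 and 2 in KSR23 mice. Klk6 had 12, 18, 17, 20 and 14 counts in WT and 0, 2, 3, 2 and 0 in KSR23 mice. For these 3 genes the fit without a count filter gave adjusted p values of 0.000169, 0.000642 and 0.000481 by the edgeR quasi-likelihood test.

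Genes of the kinin system, among them kininogens, kinin receptors and kininases, were examined as a list of 14, of which 8 could be tested. Cpn1, the catalytic subunit of the kininase carboxypeptidase N, was at 45.1, 42.2, 46.5, 39.8 and 41.8 CPM in WT and at 153.8, 133.0, 118.4, 139.7 and 157.3 CPM in KSR23 mice. The lowest KSR23 mouse was above the highest WT mouse, and Cpn1 rose by 1.71 on the log2 scale (SE 0.0804, adjusted p = 2.37e-11, edgeR quasi-likelihood test). Mme, the kinin-degrading enzyme neprilysin, went from 5.10 ± 0.434 to 2.85 ± 0.794 CPM (SD, n = 5), without overlap, and fell by 0.85 on the log2 scale (SE 0.183, adjusted p = 0.00180, edgeR quasi-likelihood test). The other 6 did not pass. The log2 FC was 0.03 for the kinin receptor Bdkrb2 (SE 0.265), and 0.16 for Ace (SE 0.112), 0.18 for Ece1 (SE 0.0939), -0.12 for Cpm (SE 0.196) and 0.16 for Xpnpep2 (SE 0.239), all peptidases, and 0.22 for Serpina3c (SE 0.517).

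The remaining 6 kinin genes had fewer than 5 counts in some library, and 4 of them did not overlap between groups. Over the tested genes 19.4% did not overlap in either direction, and no such share was computed for genes this low. Kng2, a kininogen gene and so a source of the substrate of Klk1, had 10, 18, 3, 0 and 3 counts in WT and 643, 384, 160, 598 and 1031 in KSR23 mice. The mean level was 0.237 ± 0.249 CPM in WT and 14 ± 3.79 CPM in KSR23 mice (SD, n = 5, exact permutation p = 0.00794). Its near-copy Kng1 had 6, 1, 7, 11 and 10 counts in WT and 32, 17, 9, 21 and 64 in KSR23 mice (exact permutation p = 0.00794 on CPM). The kininogen genes share sequence, with 89.4% of Kng1 windows and 89.5% of Kng2 windows unique, so part of the Kng1 reads may belong to Kng2. Cpn2, the other subunit of carboxypeptidase N, had 5, 5, 0, 0 and 2 counts in WT and 98, 60, 29, 77 and 99 in KSR23 mice (exact permutation p = 0.00794 on CPM). Klkb1, which encodes plasma kallikrein, had 2, 5, 6, 5 and 4 counts in WT and 1, 1, 0, 2 and 0 in KSR23 mice. F12 and Bdkrb1 were near 0 in both groups.

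**Figure D5:**
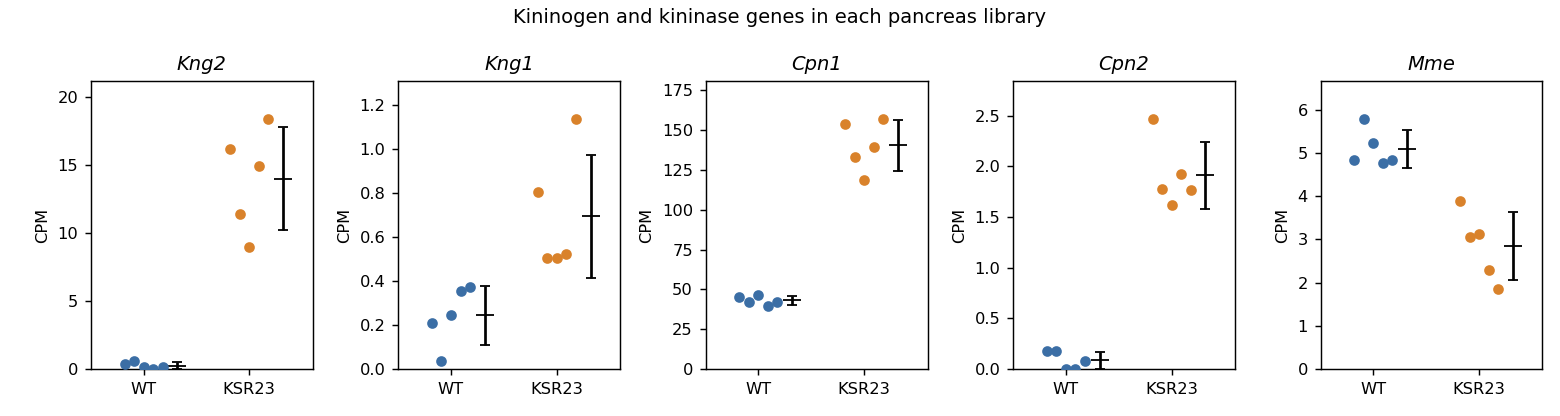
Level in CPM (y axis, from 0, a separate scale per gene) of kininogen genes (Kng2, Kng1), carboxypeptidase N genes (Cpn1, Cpn2) and Mme in each WT (blue) and KSR23 (orange) library, with the mean and SD of 5 mice as a black bar. The first 4 genes are higher and Mme is lower in KSR23 mice, all without overlap.

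Other gene groups moved beside Klk1. For these lists, the shares over all tested genes were 14.8% lower and 16.2% higher. Of the 25 acinar secreted genes, 19 were lower, 4 were higher and 2 did not pass, with a median log2 FC of -0.66. Among the most abundant, Cela2a, an elastase, had a log2 FC of -1.13, Cel, a lipase, -0.59, and Pnliprp1, a lipase-related protein, -0.38, while Ctrb1, a chymotrypsinogen, was at -0.13 and did not pass (adjusted p = 0.371, edgeR quasi-likelihood test). Klk1, at -1.42, was lower than these 4, but 5 of the 25 had a lower log2 FC than Klk1. These 5, named after their values were seen, were the chymotrypsin genes Ctrl (-2.90) and Ctrc (-2.11), the elastase gene Cela1 (-2.53), Sycn (-1.89), which encodes the zymogen granule protein syncollin, and the lipase gene Pnlip (-1.85). The 4 higher genes, also named after their values were seen, were the trypsin genes Prss3 (0.93), Try5 (0.70), Prss2 (0.37) and Try4 (0.34). Among the other trypsin genes listed, Try10 fell (-0.97) and Prss1 was at -0.05 and did not pass. Of 6 acinar transcription factors, 3 were lower and 3 did not pass, and their summed level was 623.7 to 739.9 CPM in WT and 498.8 to 641.3 CPM in KSR23 mice. Of 10 duct markers, 9 were higher and 1, Krt19, was at -0.05 and did not pass, and their summed level was 1747 to 1892 CPM in WT and 2821 to 3111 CPM in KSR23 mice.

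Of 8 islet markers, 6 were lower, 1 was higher and 1 did not pass, with summed levels of 8123 to 11383 CPM in WT and 5005 to 6307 CPM in KSR23 mice. Of 13 leukocyte markers, 6 were higher and 1 was lower, with summed levels of 120.9 to 135.0 CPM in WT and 144.8 to 363.2 CPM in KSR23 mice. The highest of these is KSR23 replicate 3, and the next is 211.1 CPM. Of 10 markers of stroma and endothelium, 2 were higher and 2 were lower. Of the 4 salivary list genes that could be tested, Amy1, an amylase, and Egf fell (log2 FC -0.46 and -0.74), and Aqp5, a water channel, was at -0.23 and did not pass. The part of these cell types in the level of Klk1 was not tested.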

How the data were processed

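Pancreas RNA of 5 WT and 5 KSR23 mice was analyzed, with groups and replicate numbers from the labels. Libraries were made from oligo-dT primed, PCR-amplified cDNA without molecular identifiers, and the kit does not mark strand. The deposited values are raw counts, made by the authors with htseq-count 0.6.1 from single-end reads of 75 bases that TopHat 2.1.0 had placed uniquely on mm10. Reads shared by near-identical genes were thus dropped. The annotation and the strand setting are not given in the sources used here. In GENCODE M21, Gm10109 overlaps Klk1 and Gm44756 overlaps Klk1b1 on the other strand, and neither is among the genes counted. Their reads could have been counted in these members, which was not tested.

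A minimum of 5 counts per library was set for each gene, and the counts of the 13882 genes that met it were scaled (TMM) and tested with edgeR 4.0.16 in R 4.3.3, with Benjamini-Hochberg adjustment over all of them and a threshold of 0.05. CPM values use the scaled library sizes. Single values were compared with two-sided exact permutation tests over 252 splits. Ratios to Klk1 had 0.5 counts added for the log2 scale. Limits set by a count of 0 cover counting error only. In data simulated for the WT against KSR23 comparison, 92.4% of 198 genes changed by 1 on the log2 scale were found, among 14379 genes tested. The changed genes were drawn only from those above a limit of mean counts. Smaller changes, such as those of the members that did not pass, were not simulated. The members, gene lists and tests were chosen with earlier results of these data known. All members are named, with the called genes of the kallikrein and kinin lists, up to 4 of the most abundant genes of other lists, and the 5 genes nearest to Klk1. Further genes of the acinar secreted and leukocyte lists were named after their values were seen. Of the salivary list, 1 gene is not reported here. Positions and windows use GENCODE M21 and promoters RefSeq GRCm38.p6. The alternatives were other scalings, filters and tests (DESeq2 1.42.0), a replicate block and leaving out each library.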

Additional observations from a re-analysis of the deposited data

How the results depend on the processing

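Of 168 fold changes and ratios recomputed under alternatives, 155 kept their direction and side of the threshold and none changed sign. Klk1 and Klk1b5 passed in all 18 fits, at a log2 FC of -1.49 to -1.35 and -1.37 to -1.11 with 1 library left out. The number of members called, 3, ranged from 2 to 5 with 1 library left out, with 5 called without KSR23 replicate 3, the shallowest library. With 1 library left out, the log2 FC ranged from -0.51 to -0.26 for Klk1b3, -0.50 to -0.30 for Klk1b4, -0.77 to -0.50 for Klk1b11 and -0.96 to -0.30 for Klk1b24, and the log2 ratio to Klk1 from 0.51 to 1.09 for Klk1b24. Klk1b11 did not pass with library size alone (log2 FC -0.52), which also moved calls over all genes to 3075 higher and 1161 lower, from 2250 and 2049, as the median log2 FC went from -0.01 to 0.087. The summed share of the members changed by -1.33 on the log2 scale over all gene counts. It changed by -1.20 without the genes of the Reg family and by -0.98 over the other acinar secreted genes only. The cause was not tested.

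No pairing by replicate number was seen, as same-numbered libraries correlated between -0.111 and 0.066 and 1 of 5 matched its own number best. Shared litters or batches could go unseen in these correlations, and the labels do not give them. A replicate block left 3749 genes and 3 members called. Paired ratios to Klk1 were 1.12 for Klk1b3, 1.03 for Klk1b4 and 0.83 for Klk1b11, at an exact permutation p of 0.0625, the smallest 5 pairs allow. Low counts limit Klk1b24 and the 4 members not compared.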
